A study of Mus musculus with 13 samples.

Results

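The genes described here encode 9 subunits of Polycomb repressive complex 1 (PRC1) in C2C12 cells, a mouse myoblast line. They are the RING ligases Ring1 and Rnf2, the PCGF protein Bmi1, the CBX proteins Cbx2, Cbx6, Cbx7 and Cbx8, the polyhomeotic protein Phc1 and the RYBP-class protein Rybp. They were taken by symbol from a gene-level expression table of 23236 rows, and each of the 9 had 1 row. The series holds 13 samples, of which 2 RNA-seq libraries were analysed here: myoblasts labelled siNC and myoblasts labelled siLinc-Yy1. Both are poly(A)-selected libraries of C2C12 cells at the stage labelled myoblast, so each value comes from 1 cell line. By the usual reading of such names, siNC is a control siRNA and siLinc-Yy1 an siRNA against Linc-Yy1, a long noncoding RNA, although the labels do not spell this out. The other RNA-seq libraries and the ChIP-seq libraries were not analysed here. Each condition has 1 library, so the values describe this pair of libraries, no difference has a replicate error, and no p-value was computed.

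PRC1 places a single ubiquitin on histone H2A through a RING dimer, made of Ring1 or Rnf2 with a PCGF partner, and compacts chromatin at repressed genes. The PCGF protein defines the kind of complex. Bmi1 and its paralogue Pcgf2 build canonical complexes, which hold a CBX protein that binds trimethylated H3K27 and a polyhomeotic protein that can polymerise, while Rybp or Yaf2 takes the place of the CBX protein in variant complexes. In muscle cells Polycomb complexes are known for holding differentiation genes silent in proliferating myoblasts.

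All 9 genes were expressed in both libraries. Levels are in FPKM, which divides the fragments of a gene by its transcript length and by the size of the library, so they can be compared between genes. In siNC the order was Cbx6 (31.9 FPKM), Bmi1 (19.9), Phc1 (17.9), Ring1 (16.8), Rnf2 (16.7), Rybp (9.75), Cbx8 (7.40), Cbx2 (7.32) and Cbx7 (5.17 FPKM). In siLinc-Yy1 it was Cbx6 (32.0 FPKM), Phc1 (20.6), Bmi1 (18.4), Ring1 (17.8), Rnf2 (15.3), Rybp (7.81), Cbx7 (6.80), Cbx2 (6.55) and Cbx8 (6.12 FPKM). The ligases, Bmi1 and Phc1 thus lay near the middle of expressed genes, and Cbx2, Cbx7 and Cbx8 in the lower part. Of the 11792 rows with a mean of at least 1 FPKM, 56.2% were below Ring1 in siNC, 75.7% below Cbx6 and 22.4% below Cbx7.

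A counting error was put on these levels from the nominal depth of each library. At 1 kilobase of transcript, 5.17 FPKM in siNC stands for 342 fragments and 6.80 FPKM in siLinc-Yy1 for 323. All intervals below are exact 95% intervals on such counts, which are conditional on that depth and cover counting error only. They would be narrower for a longer transcript. In siNC, 3 neighbours in the order could not be told apart by this measure: Phc1 over Ring1 (a ratio of 1.07, interval 0.982 to 1.16), Ring1 over Rnf2 (1.01, 0.924 to 1.09) and Cbx8 over Cbx2 (1.01, 0.891 to 1.15). In siLinc-Yy1 this held for Bmi1 over Ring1 (1.03, 0.938 to 1.14), for Rybp over Cbx7 (1.15, 0.987 to 1.34), for Cbx7 over Cbx2 (1.04, 0.886 to 1.22) and for Cbx2 over Cbx8 (1.07, 0.908 to 1.26).

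**Figure D1:**
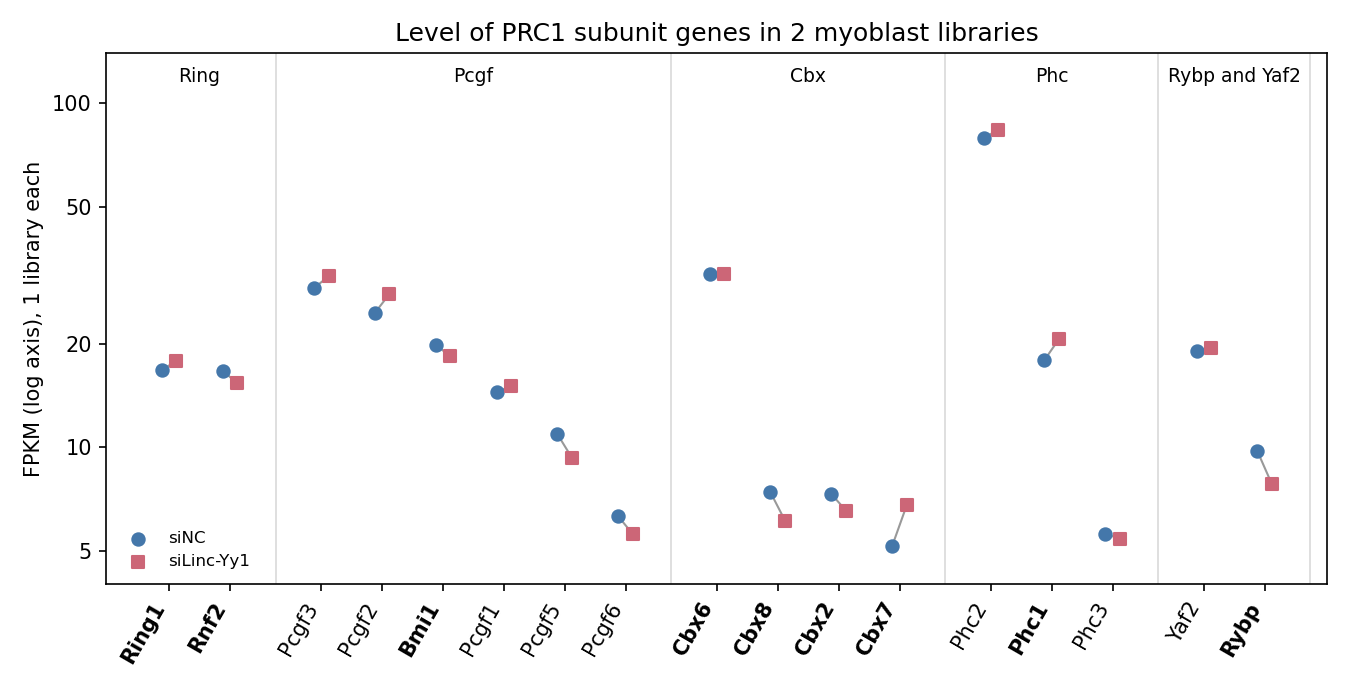
FPKM (log axis) of the 9 genes (bold) and of paralogues in the siNC library (circles) and the siLinc-Yy1 library (squares), grouped by subunit class, with 1 library per symbol and no error bars. Most pairs of symbols lie close together, and the widest gap among the 9 is that of Cbx7, from 5.17 to 6.80 FPKM.

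The difference between the libraries was small for every one of the 9 genes. It was taken on a log2 scale with 1 FPKM added to each value, siLinc-Yy1 minus siNC, a scale on which changes of low genes come out too small. The 9 values ran from -0.29 for Rybp to 0.34 for Cbx7, with 4 above 0, 5 below 0 and a median of -0.11. Over all 11792 rows the median was -0.021 and the central 95% ran from -0.38 to 0.71. None of the 9 genes reached a 2-fold difference, which 1.57% of all rows did. In siLinc-Yy1, 164 rows (1.39%) were at least 2-fold higher and 21 rows (0.178%) at least 2-fold lower, or 89 and 38 rows with the libraries scaled to equal totals. None reached 1.5-fold either, against 3.8% of all rows. Of all rows 1.45% were called in the authors' deposited table, and of the 9 genes 0, with q-values there from 0.567 to 1.00. With so few calls in the background, a count of 0 among 9 genes is near it and says nothing particular about them. Scaling both libraries to the same total FPKM shifted the median row to -0.30. The 9 genes moved down with it, to a median of -0.41, and Cbx6, Ring1 and Phc1 turned from above to below 0, so directions below are those at the authors' scaling and ratios within a library are given beside them.

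**Figure D2:**
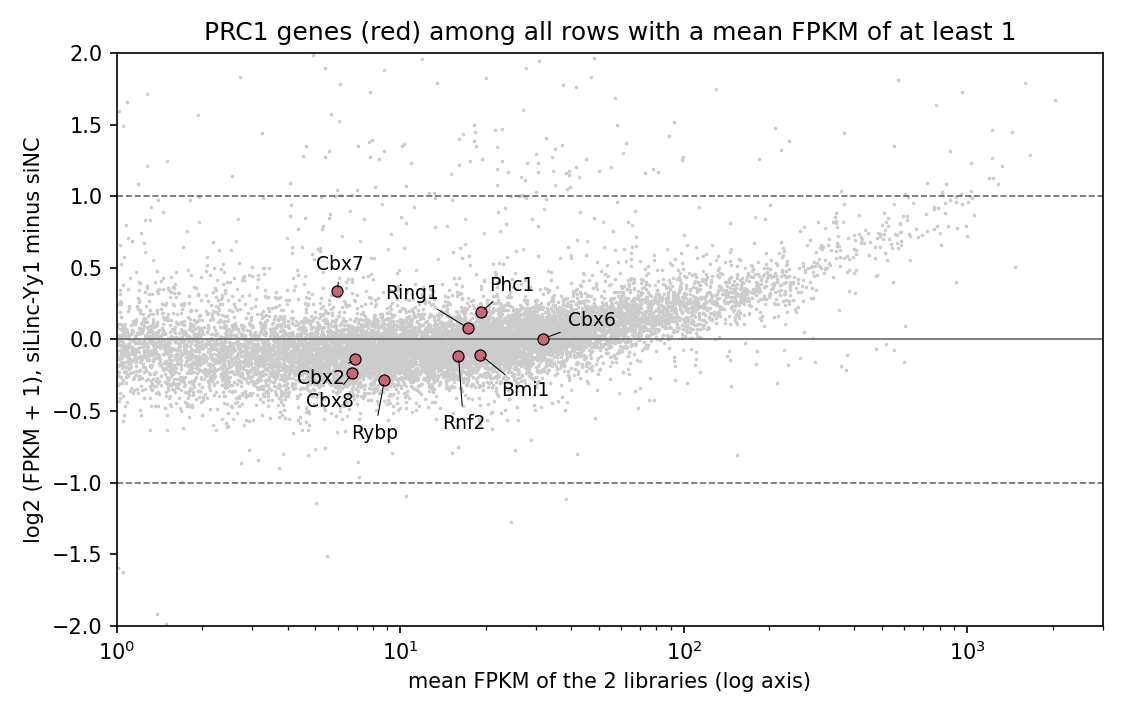
Difference between the libraries (log2 of FPKM + 1, siLinc-Yy1 minus siNC) against the mean FPKM of both (log axis) for 11792 rows (grey) and the 9 PRC1 genes (red), with dashed lines at 2-fold; 40 grey rows lie beyond the plotted range. All 9 lie between the dashed lines, within the band of rows of like level.

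The catalytic subunits lay at near equal levels. Ring1 (chromosome 17, 34157736 to 34161625 in the mm9 coordinates of the table) measured 16.8 FPKM in siNC against 17.8 in siLinc-Yy1. Rnf2, the paralogue also called Ring1b (chromosome 1, 153316535 to 153347953), measured 16.7 and 15.3 FPKM. The ratio between libraries was 1.06 for Ring1 (interval 0.968 to 1.16) and 0.917 for Rnf2 (0.834 to 1.01), so each interval includes 1. Within a library Ring1 made up 50.1% of the summed FPKM of the pair in siNC (48.0 to 52.2%) and 53.7% in siLinc-Yy1 (51.2 to 56.2%). This share does not depend on the scaling between libraries, and its intervals overlapped. Non-overlap is a stricter mark than an interval on the difference itself, which was not computed. Overlap here and below therefore does not show equal shares or ratios. Ring1 and Rnf2 summed to 33.5 FPKM in siNC against 33.1 in siLinc-Yy1.

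Bmi1, or Pcgf4, the canonical RING partner known for repressing the Cdkn2a locus (chromosome 2, 18598644 to 18608256), measured 19.9 FPKM in siNC against 18.4 in siLinc-Yy1. Its ratio of 0.925 had an interval of 0.848 to 1.01. Pcgf2, or Mel18, its closest paralogue, measured 24.6 and 27.9 FPKM, a ratio of 1.13 (1.05 to 1.22). The ratio of Bmi1 to Pcgf2 within a library was 0.808 in siNC (0.750 to 0.869) and 0.658 in siLinc-Yy1 (0.604 to 0.718), and these intervals did not overlap. In both libraries Pcgf2 therefore stood above Bmi1. How often such intervals fail to overlap among all pairs of genes was not counted, here or for the ratios and shares below. By counting error alone, the interval of the ratio between libraries left out 1 for 43.1% of all rows at the authors' scaling. Together they held 42.2% of the summed FPKM of the 6 PCGF genes in siNC and 43.0% in siLinc-Yy1. The most abundant PCGF gene in both was Pcgf3, of a variant complex (29.1 and 31.4 FPKM). Pcgf1, which works with Kdm2b and Bcor, measured 14.5 and 15.0 FPKM, Pcgf5 10.9 and 9.31 FPKM, and Pcgf6, partner of Mga and L3mbtl2, 6.30 and 5.59 FPKM. Bmi1 had 18.9% of the class in siNC (18.0 to 19.8%) and 17.1% in siLinc-Yy1 (16.1 to 18.1%).

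Because the series turns on Yy1, a zinc finger factor whose recognition sequence has the core CCAT, the RefSeq promoters of these genes (GRCm38.p6, 250 bases before to 50 after a gene's start) were searched for GCCATNTTG on both strands. Windows were found for 7 of the 9 genes, all but Cbx2 and Rybp, and for 6 of 8 paralogues. Of these, 1 member window (Bmi1) and 1 paralogue window (Pcgf2) held the motif, against 2.51% of 32851 windows of the same length. The motif was chosen after the member promoters had been read, so the share of all windows gives no measure of an excess here. A match describes letters, not a binding site. These stretches of 60 bases are shown since the only matches fell in the paralogue pair that shares a place in canonical PRC1. Capitals mark the motif, which begins 170 bases before the start in Bmi1 (chromosome 2, 18676822 to 18676881, plus strand) and 89 bases before it in Pcgf2 (chromosome 11, 97699704 to 97699763, minus strand).
Bmi1: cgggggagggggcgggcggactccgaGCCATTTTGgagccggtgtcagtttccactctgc
Pcgf2: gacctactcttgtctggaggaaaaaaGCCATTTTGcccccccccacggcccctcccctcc
The shorter form GCCATNTT, contained in the first, was also found in the window of Phc3 and in 6.05% of all windows. Yy1 itself measured 28.6 and 30.9 FPKM.

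The CBX genes differed among themselves in both level and direction. Cbx6 was the most abundant, and Cbx7 and Cbx8 exchanged places at the low end. Cbx7, the CBX protein best known from stem cells (chromosome 15, 79746236 to 79763076), measured 5.17 FPKM in siNC against 6.80 in siLinc-Yy1. Its ratio of 1.31 had an interval of 1.12 to 1.53, which does not include 1 at the authors' scaling. At equal totals its difference on the log2 scale went from 0.34 to 0.061, within counting error of 0. Cbx8 (chromosome 11, 118899749 to 118902227) went the other way, with 7.40 FPKM in siNC against 6.12 in siLinc-Yy1, a ratio of 0.827 (0.712 to 0.958), and its difference went from -0.24 to -0.51 at equal totals. Cbx2 (chromosome 11, 118884342 to 118892584), known for compacting chromatin, measured 7.32 and 6.55 FPKM, a ratio of 0.895 with an interval of 0.773 to 1.03. Cbx7 over Cbx8 was 0.699 in siNC (0.607 to 0.805) and 1.11 in siLinc-Yy1 (0.944 to 1.31), so Cbx8 was the more abundant in the first library and the pair was level within counting error in the second.

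In the authors' deposited table the unadjusted p-value of Cbx7 was 0.0477 and its q-value 0.567. It was the only one of the 9 genes with an unadjusted p under 0.05 there, a mark that 7.09% of all rows reached. Among the 300 rows nearest in mean FPKM, 97.0% lay below Cbx7 in their difference. The central 95% of those rows, from -0.37 to 0.39, held its value of 0.34. Genes vary in this band for many reasons, and it is no replicate error.

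Cbx6 (chromosome 15) measured 31.9 FPKM in siNC against 32.0 in siLinc-Yy1, a ratio of 1.00 (0.939 to 1.07). Its locus, 79616780 to 79664763, is given in the table to 2 more rows, Npcd, named for a neuronal pentraxin with a chromodomain, and Nptxr, a neuronal pentraxin receptor. Reads of this locus were divided between the rows by the authors' estimate, which leaves the level of Cbx6 uncertain. Npcd measured 13.9 and 11.4 FPKM and Nptxr 5.36 and 6.81 FPKM. Cbx6 and Npcd summed to 45.8 FPKM in siNC against 43.4 in siLinc-Yy1. None of the other 8 genes shared its locus with another row.

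As shares of the summed FPKM of the 4 CBX genes, Cbx7 had 9.99% in siNC (9.01 to 11.1%) and 13.2% in siLinc-Yy1 (11.9 to 14.6%), and these intervals did not overlap. Cbx8 had 14.3% (13.1 to 15.5%) and 11.9% (10.6 to 13.2%), with intervals that overlapped narrowly. Those of Cbx2 (14.1% and 12.7%) and Cbx6 (61.6% and 62.2%) overlapped as well. Cbx2 and Cbx8 together held 28.4% in siNC and 24.6% in siLinc-Yy1, a pair put together after its values were seen. Without Cbx6, whose locus is shared, Cbx7 had 26.0% and 34.9% of the remaining 3 and Cbx8 37.2% and 31.4%. The 4 genes summed to 51.8 FPKM in siNC against 51.5 in siLinc-Yy1.

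The CBX genes also lie close to each other in the genome. Cbx2 and Cbx8 follow each other on chromosome 11 with 7.17 kb between them and no further row of the table in the gap, and their ratios were 0.895 and 0.827. Cbx6 and Cbx7 lie 81.5 kb apart on chromosome 15, with the rows Apobec3 and D730005E14Rik between them, and their ratios were 1.00 and 1.31.

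**Figure D3:**
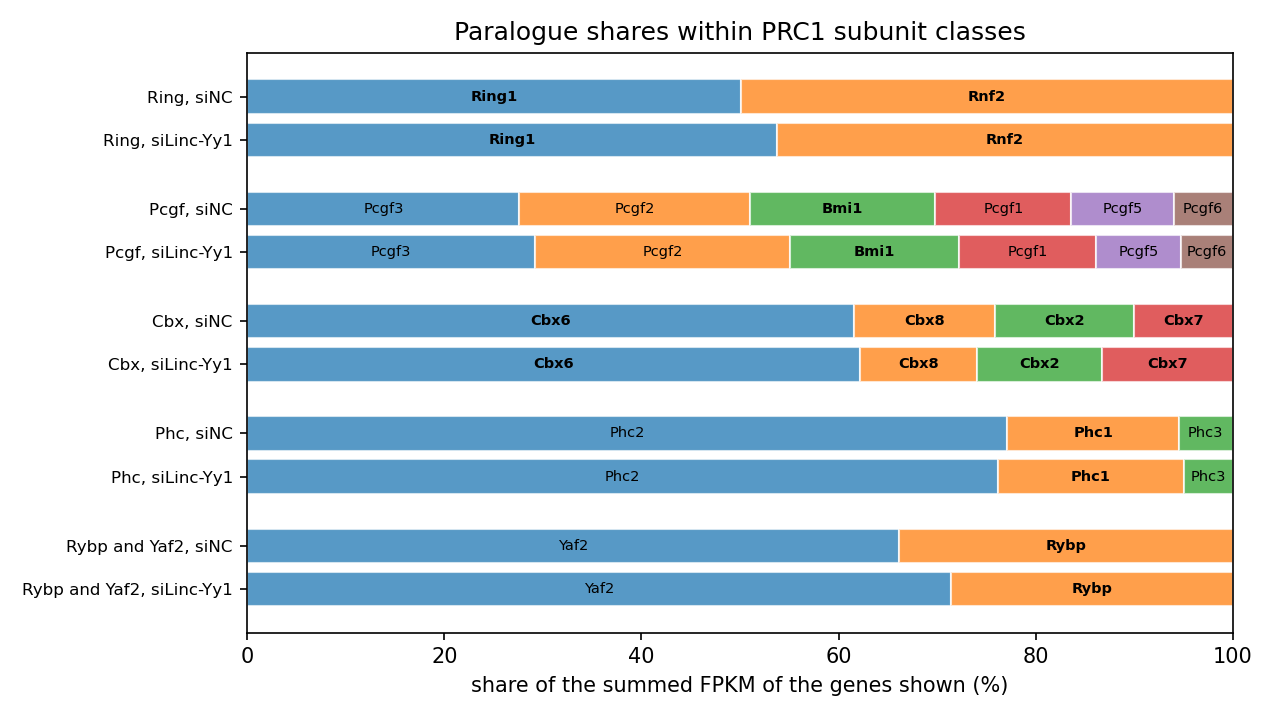
Share (%) of each gene in the summed FPKM of the genes shown of its subunit class, as stacked bars for the siNC and the siLinc-Yy1 library; the 9 genes are in bold. The Cbx7 segment widens from 9.99 to 13.2% while that of Cbx8 narrows from 14.3 to 11.9%, and the Rybp segment narrows from 33.8 to 28.6%.

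Phc1, a polyhomeotic protein whose SAM domain links PRC1 complexes (chromosome 6, 122267748 to 122287033), measured 17.9 FPKM in siNC against 20.6 in siLinc-Yy1. The ratio of 1.15 had an interval of 1.06 to 1.25, and the difference of 0.19 on the log2 scale became -0.11 at equal totals. Phc2 was far more abundant, at 79.5 and 83.5 FPKM, and Phc3 less so, at 5.61 and 5.42 FPKM. Phc1 over Phc2 was 0.226 in siNC (0.212 to 0.240) and 0.247 in siLinc-Yy1 (0.230 to 0.265). Its share of the class was 17.4% (16.5 to 18.3%) and 18.8% (17.8 to 19.9%), with overlapping intervals.

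Rybp, which binds ubiquitinated H2A and stimulates the ligase in variant complexes (chromosome 6, 100178558 to 100237352), measured 9.75 FPKM in siNC against 7.81 in siLinc-Yy1. Its ratio of 0.801 (0.702 to 0.911) was the lowest among the 9 genes, and its difference of -0.29 became -0.57 at equal totals. Its paralogue Yaf2, named for its binding to Yy1, measured 19.0 and 19.5 FPKM, a ratio of 1.02 (0.940 to 1.12). Rybp over Yaf2 was 0.512 in siNC (0.465 to 0.563) and 0.400 in siLinc-Yy1 (0.353 to 0.451), and Rybp had 33.8% of the pair (31.7 to 36.0%) and 28.6% (26.1 to 31.1%). The share restates the ratio of the same genes, and the intervals of this single comparison did not overlap. Of the 300 rows nearest in level, 6.33% lay below Rybp, whose difference of -0.29 was inside their central 95% (-0.41 to 0.22). The q-value of Rybp in the authors' deposited table was 0.691.

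**Figure D4:**
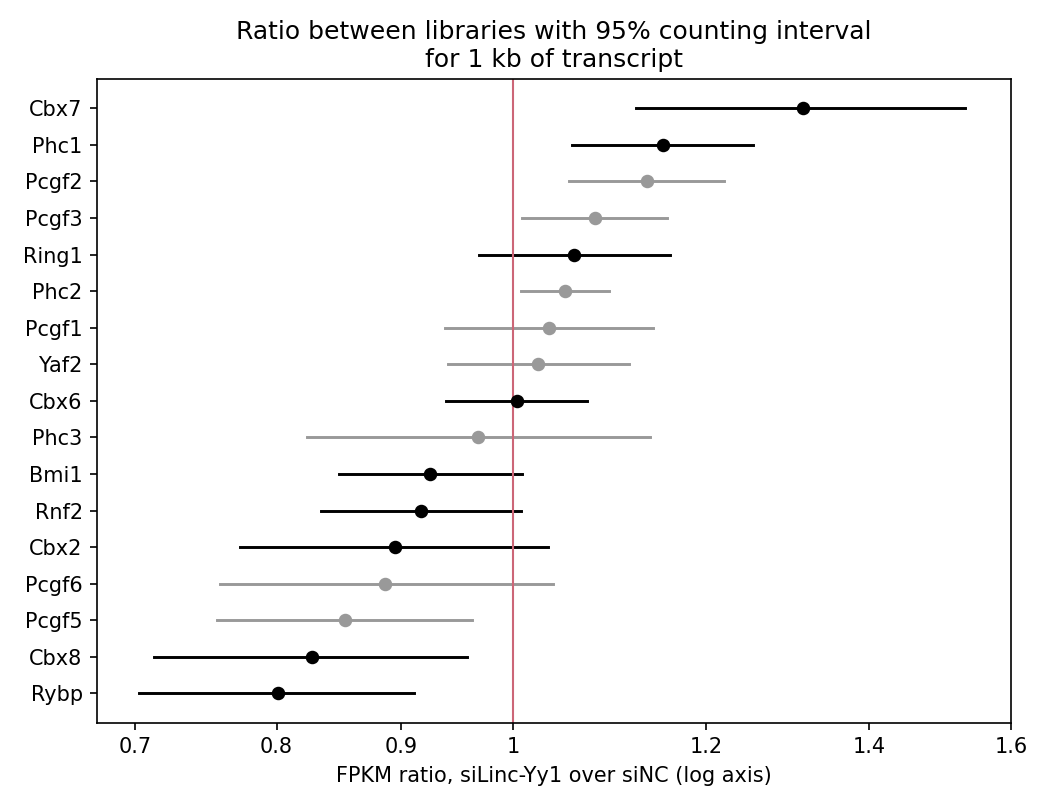
FPKM ratio of siLinc-Yy1 over siNC (log axis) for the 9 genes (black) and 8 paralogues (grey), with the exact 95% counting interval for 1 kb of transcript as a bar. Of the 9, Cbx7 and Phc1 lie above 1 and Cbx8 and Rybp below 1 with the whole interval at the authors' scaling; the vertical line marks equal FPKM.

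Set side by side, 4 of the 9 genes (Cbx7, Phc1, Cbx8 and Rybp) and 4 of 8 paralogues (Pcgf2, Pcgf3, Pcgf5 and Phc2) had an interval that left out 1, as did 43.1% of all rows, so these counts are near the background. At equal totals the interval left out 1 for 7 of the 9 genes, all lower in siLinc-Yy1 and all but Cbx7 and Phc1, for 8 of 8 paralogues and for 86.9% of all rows. Counting error is only part of the error between separate cultures, which these libraries do not measure. None of the 9 genes lay outside the central 95% of rows of like level. When a running median of rows ordered by level was subtracted, Cbx7 stood at 0.44, Phc1 at 0.23, Ring1 at 0.13, Rybp at -0.21 and Cbx8 at -0.15, and the sign of Cbx6 turned (-0.021 against 0.0055).

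Of the 7 genes with a promoter window, 6 held 23 to 37 CG pairs, more than 78.5% (Bmi1) to 94.4% (Ring1) of all windows. A high density of CG pairs marks CpG islands in mammals and played no part in the choice of the genes. The set of all windows was not limited to expressed genes, so a trait particular to these genes is not shown. The 7 windows held a median of 30 CG pairs and 67.3% G and C, the 10 windows of the paralogues 20.5 pairs and 63.0%, and all 32851 windows 7 pairs and 52.7%, so the paralogues also lay above the whole and no difference between both sets was tested. Ring1 had 37 pairs, Cbx7 33, Cbx6 31, Rnf2 30, Cbx8 24 and Bmi1 23, while Phc1 stood apart with 9 pairs, more than 54.2% of all windows. The 100 bases before the start are shown for the CBX genes with the highest and the lowest ratio and for Phc1, the window poorest in CG pairs, with each pair in capitals. They lie on the minus strand of chromosome 15 (79932647 to 79932746) for Cbx7, chromosome 11 (119040914 to 119041013) for Cbx8 and chromosome 6 (122340228 to 122340327) for Phc1, in GRCm38.p6.
Cbx7: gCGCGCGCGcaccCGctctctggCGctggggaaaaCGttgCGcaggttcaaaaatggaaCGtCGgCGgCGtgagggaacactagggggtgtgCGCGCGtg
Cbx8: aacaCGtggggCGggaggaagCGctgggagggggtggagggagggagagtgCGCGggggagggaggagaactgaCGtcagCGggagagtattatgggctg
Phc1: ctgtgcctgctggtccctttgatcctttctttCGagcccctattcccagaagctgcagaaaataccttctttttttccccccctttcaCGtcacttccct
They hold 15, 7 and 2 pairs. A relation between the count of CG pairs and the ratios was not tested.

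The other genes of the PRC1 system were equally close between the libraries. Of a list of 36 further subunits and partners, 33 passed a mean of 1 FPKM, with a median difference of 0.032, 19 above 0 and 14 below 0. Of these, 0 were 2-fold different and 0 were called in the authors' deposited table, against 1.57% and 1.45% of all rows. Both counts are near that background and say nothing particular about these genes. The largest differences were those of Csnk2b, the regulatory subunit of casein kinase 2 (129 and 168 FPKM), Skp1a, an adaptor of cullin ligases (68.5 and 84.6 FPKM), and Scml4 (1.28 and 0.939 FPKM). Enzymes and cofactors that remove ubiquitin from H2A gave a median of -0.075 over 8 of 9 genes past the filter, and Usp16 (20.1 and 17.7 FPKM, at a locus given to 2 rows), Mysm1 (3.34 and 2.86 FPKM) and Usp22 (38.0 and 42.0 FPKM) differed most. A list of 3 genes, Dnajc2 and Rsf1, whose proteins read ubiquitinated H2A, and Zrsr2, had a median of -0.093. The HP1 proteins Cbx1, Cbx3 and Cbx5, which carry a chromodomain for H3K9 methylation and belong to another system, measured 37.3 and 36.9, 70.9 and 79.0, and 31.8 and 29.3 FPKM.

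PRC2 deposits the H3K27 methylation that CBX proteins bind. The 6 genes of its core list had a median difference of 0.073. Ezh1, the methyltransferase paralogue, measured 9.41 and 10.1 FPKM. Ezh2 (29.7 and 25.6 FPKM) and Suz12 (17.2 and 13.8 FPKM) had ratios of 0.864 and 0.804, and Eed (20.4 and 22.5 FPKM) one of 1.10. Cdkn2a, the classic target through which Bmi1 sustains proliferation, was at the limit of detection, with 0.0865 and 0.126 FPKM, or 6 fragments per kilobase in each library. Its neighbour Cdkn2b was listed at 0 in siNC and measured 0.0162 FPKM in siLinc-Yy1. No difference of these targets was detectable at this depth.

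The labelled cell type was checked against its markers. The 5 myoblast markers ranged from 18.8 to 322 FPKM in siNC and from 21.9 to 487 FPKM in siLinc-Yy1. All 5 stood higher in siLinc-Yy1 at the authors' scaling, as did 5354 of 11792 rows. With the running median of rows ordered by level subtracted, they did not move one way. Cdh15 then stood at -0.21, Myod1 at -0.052, Des at -0.039, Itga7 at -0.016 and Myf5 at 0.24 on the log2 scale. The 5 myotube markers summed to 130 and 147 FPKM but did not move one way, with a median difference of -0.22, 2 above 0 and 3 below 0 at that scaling. Ckm, the muscle creatine kinase, measured 14.5 and 24.9 FPKM, and Myh3, embryonic myosin heavy chain, 3.08 and 1.85 FPKM. Both were called in the authors' deposited table, with q-values of 0.00421 and 0.0241. Acta1, skeletal actin, measured 78.0 and 91.3 FPKM, Myog 22.8 and 19.4 FPKM, and Tmem8c, the fusion protein myomaker, 11.4 and 9.08 FPKM. Summed levels were 0.256 and 0.343 FPKM for 3 endothelial, 0.379 and 0.574 for 3 epithelial, 1.73 and 1.66 for 3 adipocyte, and 4.74 and 4.81 FPKM for 3 leukocyte markers, the last nearly all from Cd68. In the neural list Tubb3, which myoblasts can also express, measured 117 and 152 FPKM, while Sox10 measured 0.0953 and 0.0555 FPKM. The lincYy1 row measured 0.360 and 0.227 FPKM, with a ratio of 0.629 and an interval of 0.282 to 1.35, so a lower level of the named target was not resolved. The nominal depth, in M fragments, was 66.1 in siNC and 47.6 in siLinc-Yy1. The part of depth and of muscle marker levels in the values of the 9 genes was not tested.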

How the data were processed

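Gene-level FPKM values of 2 RNA-seq libraries were read from 1 Cuffdiff table. The FPKM and the p-values and q-values are the authors', per the file headers. Cuffdiff 2.0.4, Cufflinks 2.1.1, TopHat2 2.0.4 and the build mm9 are listed in the submitters' processing notes. For the annotation, strand use and scaling between libraries, details are not given in the sources used. The first value column was taken as siNC and the second as siLinc-Yy1, the order of the header. The members, the lists and the rule for named genes (the members, their paralogues, PRC2 core genes, HP1 genes, Cdkn2a, Cdkn2b and up to 3 genes per other list) were chosen with earlier results of these data known. One gene that the lists held is not reported here. Differences used a pseudocount of 1 FPKM and rows with a mean of at least 1 FPKM. Depth was the slope of 1 over FPKM against length for single-exon receptor rows at 1 fragment. Within 0.02 fragments, 58.7% and 49.4% of low rows were whole, so no p-value was computed from counts. The intervals rest on counts from this same depth and are therefore nominal. Intervals are exact binomial ones (scipy 1.17.1). The steps were tested on simulated data with whole counts and a set depth. Many low rows here were not whole, so that test does not cover the depth of these libraries. With 1 library per condition no test between samples was possible.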

Additional observations from a re-analysis of the deposited data

How the results depend on the processing

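The count of members at least 2-fold higher or lower stayed at 0 under all 10 alternatives tried, among them a size rule of 1.5-fold and the calls in the authors' deposited table. Rescaling to equal summed FPKM moved the median difference of the 9 genes from -0.11 to -0.41 and that of the other PRC1 genes from 0.032 to -0.26, and it moved all 9 single values by more than their counting error. The other 7 alternatives moved none of them by that much. With equal sums, chosen here after seeing the data, the genes whose ratio interval left out 1 went from 4 to 7 of the 9 and from 4 to 8 of the paralogues. The rows at least 2-fold higher, 164 at the main setting, numbered 109 with a pseudocount of 5 FPKM, 89 with equal sums and 387 at 1.5-fold. The rows at least 2-fold lower, 21 at the main setting, numbered 7 with a pseudocount of 5 FPKM, 39 without a filter, 7 with a mean of at least 5 FPKM, 38 with equal sums and 61 at 1.5-fold. The last of each, and adding Npcd to Cbx6, were chosen after seeing the data. With Npcd added, Cbx7 had 7.88% and 10.8% of the summed CBX level and Cbx8 11.3% and 9.74%, and the share of Cbx6 went from 69.7% to 69.0%, the other way than without it. No paired analysis was possible because each group has 1 library and the labels give no replicate numbers. Depth limits low rows such as Cdkn2a, Cdkn2b, lincYy1 and Sox10.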
